A study of Mus musculus with 15 samples.

Results

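The proximal tubule is the first segment of the nephron after the glomerular filter, and its mature cells are recognised by the transporters, endocytic receptors and enzymes that recover most of the filtered load. A set of 39 such maturation genes was followed here, of 46517 genes in the count tables. The set was chosen by name with earlier results of these data known, so counts of its genes are descriptions. It covers 9 roles: endocytic receptors, phosphate transporters, glucose and monocarboxylate transporters, amino acid transporters, bicarbonate, anion and water transporters, gluconeogenesis and intermediary metabolism, vitamin D, drug and acyl metabolism, peptidases, and secreted or hormone-regulated products. All 39 symbols were found in the count tables.

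Messenger RNA was sequenced from 3 control and 3 knockout (KO) kidney samples of newborn mice at postnatal day 0 (P0). Reduced representation bisulfite sequencing (RRBS), which reads cytosine methylation in restriction fragments rich in CpG (a cytosine followed by a guanine), was run on 3 controls and 3 KOs at P0 and on 3 adults of 6 weeks. All mice were C57BL/6. The controls carried floxed Dnmt1 alleles without Cre (Dnmt1 f/f), the KOs were Six2Cre Dnmt1 f/f, and the adults were wild type, so adults and controls differed in genotype as well as in age. Sex may also have differed between adults and controls and could not be separated from age or genotype. No adult RNA was analysed here. Six2-driven Cre acts in nephron progenitors and their descendants, which include the proximal tubule, podocytes, the loop of Henle and the distal tubule, and not in stroma, endothelium or the ureteric bud. The labels name Six2+ cells as the source, while the protocol of the same labels describes entire kidneys. Genes of stroma (Col3a1, between 1672 and 2045 CPM, the counts of a gene scaled to the library's gene total) and endothelium (Plvap, between 87.3 and 256 CPM) were present in all 6 RNA libraries. In such bulk samples, fewer proximal tubule cells and less RNA per cell cannot be told apart. The labels do not say that replicates came from separate animals, so p-values measure the spread between these samples.

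Dnmt1 is the methyltransferase that copies methylation onto the new strand after replication, so its loss dilutes methylation as cells divide. Proximal tubule cells mature late: at birth the outer kidney still forms nephrons, and transporter genes keep rising after birth under factors such as HNF4A. Megalin and cubilin take up filtered protein, sodium-coupled carriers recover phosphate, glucose and amino acids, and the cells make glucose and activate vitamin D.

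RNA gene totals lay between 26773937 and 34102567 counts per library. CPM values are not corrected for gene length, so levels are compared within a gene only. Dnmt1 was at 176, 142 and 204 CPM in controls 1, 2 and 3 and at 112, 115 and 92.1 in the KOs, with every KO under every control (log2 fold change -0.74 ± 0.12 SE, adjusted p = 0.00577 by the quasi-likelihood test of edgeR with Benjamini-Hochberg adjustment, which gave all adjusted p-values and ± SE values of the RNA results below). At the 360390 positions with at least 10 calls in all 9 RRBS libraries, mean methylation was between 50.9% and 51.2% in controls, between 35.5% and 38.9% in KOs and between 50.7% and 51.3% in adults.

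Upstream sequence helps to place the methylation values given further on. RefSeq promoter sequences of mouse build GRCm38.p6 matched 34 of the 39 genes, with 45 annotated starts. Slc3a1 and Amn are shown because RRBS read CpGs upstream of their starts that were less methylated in adults, so they were chosen by outcome. Upstream CpGs read in Dpep1, Ggt1 and Slc7a7 had higher means in adults than in controls. At -2 of Dpep1 these were 23.5% and 12.1%, and at -88 of Ggt1 43.6% and 25.9%. Those of Cubn went both ways, and those of Lrp2 were at most 3.85%. Within 1 kb of the Gatm start, controls were at 87.0% and adults at 84.5%. Each run holds the 250 bases before the annotated start, 5′ to 3′ on the gene's + strand, with every CpG in capitals: Slc3a1 is at chr17:85028097-85028346 and Amn at chr12:111270846-111271095.
Slc3a1: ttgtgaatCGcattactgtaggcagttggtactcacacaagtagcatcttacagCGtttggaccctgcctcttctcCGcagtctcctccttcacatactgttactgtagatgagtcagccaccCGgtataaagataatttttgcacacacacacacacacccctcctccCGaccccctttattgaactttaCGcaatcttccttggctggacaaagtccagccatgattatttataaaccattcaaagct
Amn: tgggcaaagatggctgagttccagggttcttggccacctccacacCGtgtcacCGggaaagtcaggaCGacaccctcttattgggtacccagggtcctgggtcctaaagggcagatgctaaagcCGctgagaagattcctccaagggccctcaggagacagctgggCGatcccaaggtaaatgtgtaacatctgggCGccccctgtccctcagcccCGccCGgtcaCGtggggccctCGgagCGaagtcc
The CpG read by RRBS in the Slc3a1 run lies at -127 from the start and is the fourth printed in capitals. Those of Amn lie at -204 and -196 and are the first and the next.

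The letters CAAAGTCCA or CAAAGGTCA, 2 forms of the HNF4 recognition sequence, were searched on both strands of the 300 bases around each start and occurred in 1 of the 45 promoters, that of Slc3a1. They occurred in 0.950% of all 32851 promoters of that length. The match is printed in capitals within its flanks, at chr17:85028288-85028336 on the + strand.
Slc3a1: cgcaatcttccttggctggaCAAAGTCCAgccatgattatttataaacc
The other promoters did not hold these letters in this window.

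All 39 genes had a lower mean in the KO than in the control libraries. Of the 39, all of which passed the filter on low counts, 35 fell at an adjusted p under 0.05, beside 8.23% of the 18132 genes tested. None rose, by edgeR, DESeq2 or limma voom, and 0 were higher at an unadjusted p under 0.05, beside 6.36% of all genes higher at the adjusted threshold. In 37 of the 39 every KO library was below every control, which held for 14.6% of all genes tested. The median log2 fold change was -2.69, between -6.16 for Kap and -1.13 for Slc4a4, with a median of -0.00 over all genes tested. A fall of at least 4-fold that passed the test was met by 29 of the 39, beside 1.73% of all genes. The 4 genes that did not pass were Slc6a19 (adjusted p = 0.0523), Slc7a7 (0.0691), Slc13a1 (0.0791) and Slc7a8 (0.0974). Without KO 1, KO 2 or KO 3, the count that fell was 21, 22 and 22. The 21 genes that passed in all 3 of these fits left out Slc34a3, Slc5a2, Slc5a12, Slc2a2, Slc7a9, Slc4a4, Slc13a3, G6pc, Miox, Gatm, Cyp27b1, Keg1, Dpep1 and F13b.

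**Figure D1:**
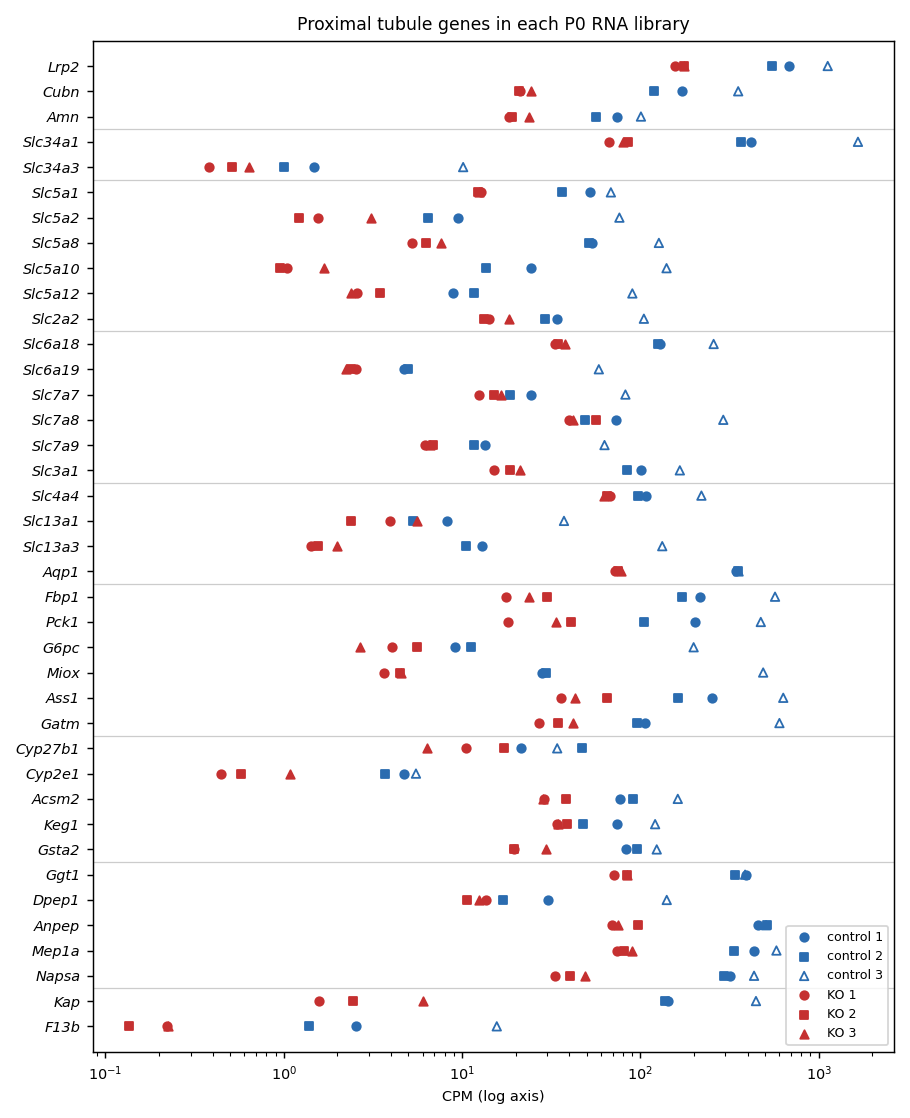
Level of each of the 39 genes in CPM (log axis) in the 3 control libraries (blue; control 3 as open triangles) and the 3 KO libraries (red), with lines between the 9 roles. The KO points lie to the left of all control points in 37 genes, and control 3 is the highest control in 36.

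The controls were not alike. Control 3 was above both other controls in 36 of the 39 genes, beside 56.4% of the 18056 genes with a mean count of at least 10. Its ratio to the mean of controls 1 and 2 had a median of 3.06, against 1.16 over those genes, and reached at least 2 in 25 of the 39 (64.1%, against 12.6%). The ratio ran from near 1 for Cyp27b1 to 19.6 for G6pc. The summed level of the 39 genes was 5198, 4499 and 11447 CPM in controls 1, 2 and 3 and 1017, 1226 and 1190 in the KOs, so the controls differed among themselves by more than the KOs did. The median coefficient of variation was 71.7% among controls and 18.0% among KOs. Results are therefore given with and without control 3. Without it 37 of the 39 fell, beside 13.8% of 18533 genes tested, with a median log2 fold change of -2.08. All 35 genes that fell with it also fell without it, and Slc7a8 (adjusted p = 0.0565) and Slc13a1 (0.0957) did not pass. In 21 genes the linear fold change moved by more than 1.5 times when control 3 was left out.

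**Figure D2:**
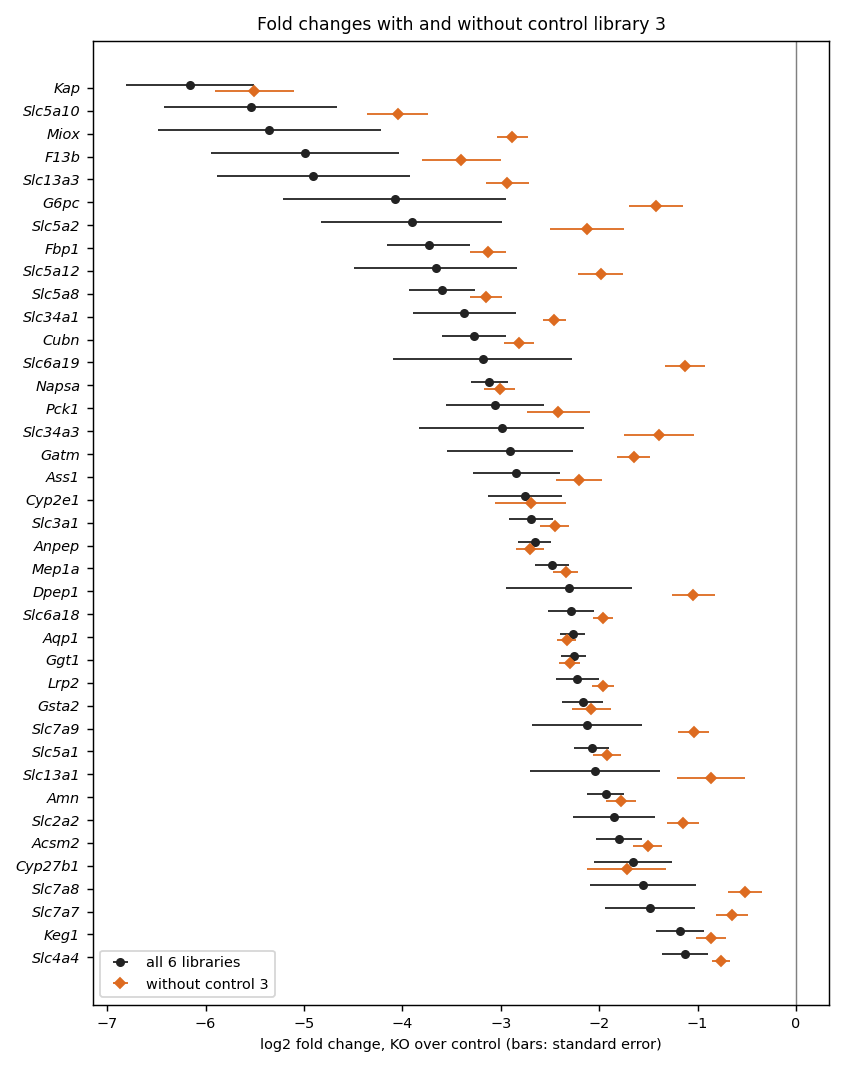
Log2 fold change of KO over control with its standard error for each gene, ordered by size, from all 6 libraries (black) and without control 3 (orange). All 39 values are below 0 in both, and the change without control 3 was smaller in 35 genes.

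The endocytic receptors all fell. Lrp2, which encodes megalin, the large receptor for filtered protein, was at 681, 545 and 1125 CPM in controls 1, 2 and 3 and at 156, 176 and 175 in the KOs (-2.22 ± 0.22, adjusted p = 0.000572). Cubn, the partner receptor cubilin, was at 172, 119 and 354 against 21.2, 20.8 and 24.4 (-3.27 ± 0.33, adjusted p = 0.000606). Amn, encoding amnionless, which brings cubilin to the membrane, was at 74.3, 56.2 and 101 against 18.3, 19.1 and 23.8 (-1.93 ± 0.19, adjusted p = 0.0005). No KO library of the 3 genes overlapped a control. Without control 3 the log2 changes were -1.96, -2.81 and -1.78.

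Both sodium-phosphate cotransporters fell. Slc34a1, the main phosphate carrier of the brush border, was at 419, 369 and 1662 CPM in the controls and at 66.8, 84.8 and 80.3 in the KOs (-3.37 ± 0.52, adjusted p = 0.00396). Slc34a3, a second phosphate carrier, was at 1.49, 0.997 and 10.1 against 0.38, 0.51 and 0.635 (-2.99 ± 0.84, adjusted p = 0.048). Control 3 stood over both other controls in each, and the groups did not overlap. Without it the changes were -2.45 and -1.39.

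Glucose and monocarboxylate carriers fell in 6 of 6. Slc5a1, the sodium-glucose cotransporter SGLT1, was at 52.5, 36.3 and 68.3 CPM in the controls and at 12.8, 12.3 and 12.5 in the KOs (-2.07 ± 0.18, adjusted p = 0.00033). Slc5a8, a sodium-coupled carrier of lactate and other monocarboxylates, was at 53.6, 51.5 and 127 against 5.26, 6.26 and 7.62 (-3.60 ± 0.34, adjusted p = 0.000423). Slc2a2, the basolateral glucose transporter GLUT2, was at 34.1, 29.1 and 105 against 14.1, 13.3 and 18.5 (-1.85 ± 0.42, adjusted p = 0.0211). The KO levels were narrow in all 3 genes and lay under the lowest control. Slc5a2 (SGLT2, the main glucose carrier of the early segment), Slc5a10, a mannose and fructose carrier, and Slc5a12, a lactate carrier, fell, with log2 changes of -3.91, -5.54 and -3.66, and control 3 was between 7.39 and 9.54 times the mean of the other controls in them. Without control 3 these 3 changes were -2.13, -4.05 and -1.99.

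Amino acid carriers were split by the test. Slc3a1, the heavy chain of the cystine and dibasic amino acid carrier, was at 101, 84.4 and 167 CPM in the controls and at 15, 18.7 and 21 in the KOs (-2.69 ± 0.22, adjusted p = 0.000273). Slc6a18, a carrier of neutral amino acids, was at 129, 126 and 258 against 33.3, 34.6 and 37.8 (-2.29 ± 0.23, adjusted p = 0.000636). Slc7a9, the light chain that pairs with Slc3a1, also fell (-2.12 ± 0.56, adjusted p = 0.0392). Slc7a8, a basolateral carrier of neutral amino acids, was at 72.7, 49.2 and 292 against 39.7, 56.2 and 41.6, and KO 2 lay above control 2 (-1.55 ± 0.54, adjusted p = 0.0974). Slc6a19, the apical neutral amino acid carrier, and Slc7a7, a basolateral carrier of cationic amino acids, had every KO below every control and did not pass with all 6 libraries. Without control 3, Slc6a19 (-1.13 ± 0.21, adjusted p = 0.00492) and Slc7a7 (-0.65 ± 0.16, adjusted p = 0.0184) passed, so that 5 of the 6 carriers fell.

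Of the bicarbonate, anion and water transporters 3 of 4 fell. Aqp1, the water channel of both membranes, was at 345, 355 and 356 CPM in the controls and at 72.3, 74.7 and 78.0 in the KOs (-2.27 ± 0.13, adjusted p = 5.43e-05). Its controls were the closest of all 39 genes, with a coefficient of variation of 1.61%. Slc4a4, the basolateral sodium-bicarbonate cotransporter, was at 108, 96.7 and 220 against 67.2, 65.0 and 62.7 (-1.13 ± 0.24, adjusted p = 0.0164). Slc13a3, a dicarboxylate carrier, was at 13, 10.6 and 133 against 1.43, 1.56 and 1.98 (-4.91 ± 0.98, adjusted p = 0.013; -2.93 without control 3). Slc13a1, a sulfate carrier, was at 8.23, 5.31 and 37.3 against 3.96, 2.38 and 5.57, with KO 3 above control 2.

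Genes of gluconeogenesis and intermediary metabolism fell in 6 of 6 and had the highest control 3 of any role relative to the other controls (4.27 times), the summed level being 812, 576 and 2967 CPM in controls 1, 2 and 3. Fbp1, the gluconeogenic fructose bisphosphatase, was at 215, 172 and 570 CPM against 17.6, 29.9 and 23.9 (-3.73 ± 0.42, adjusted p = 0.00101). Ass1, argininosuccinate synthase of arginine synthesis, was at 252, 162 and 633 against 36.0, 65.4 and 43.1 (-2.84 ± 0.44, adjusted p = 0.00396). Gatm, which makes the precursor of creatine, was at 106, 96.1 and 603 against 27.1, 34.6 and 42.1 (-2.91 ± 0.64, adjusted p = 0.0199; -1.65 without control 3). The groups did not overlap in these genes. Pck1, the gluconeogenic carboxykinase, fell by 3.06 on the log2 scale. Miox, myo-inositol oxygenase, and G6pc, which releases free glucose, are given because their values, seen first, showed the largest excess of control 3. Miox was at 28.2, 29.6 and 489 against 3.65, 4.49 and 4.56 (-5.35 ± 1.13; -2.88 without control 3). G6pc was at 9.12, 11.2 and 199 against 4.06, 5.58 and 2.69 (-4.08 ± 1.13, adjusted p = 0.0468; -1.42 without control 3, adjusted p = 0.00594). By limma voom with quality weights its adjusted p was 0.0525.

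Vitamin D, drug and acyl metabolism genes fell in 5 of 5, and in them control 3 was at most 1.98 times the mean of the other controls. Gsta2, a glutathione transferase, was at 83.2, 96.0 and 124 CPM against 19.6, 19.6 and 29.4 (-2.17 ± 0.21, adjusted p = 0.000481). Reads of Gsta2 could be shared with its near-identical family members, so its value is uncertain. Acsm2, a medium-chain acyl-CoA synthetase, was at 76.9, 90.4 and 162 against 28.7, 38.5 and 28.5 (-1.80 ± 0.24, adjusted p = 0.00194). Keg1, a kidney-expressed acyltransferase-like gene, was at 74.4, 47.7 and 121 against 34.2, 38.7 and 34.6 (-1.18 ± 0.24, adjusted p = 0.0147). The KOs were below every control in these genes. Cyp27b1, the enzyme that activates vitamin D, and Cyp2e1, a cytochrome of small-molecule oxidation, fell by 1.66 and 2.75 on the log2 scale.

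Peptidases fell in 5 of 5. Ggt1, the brush border gamma-glutamyltransferase, was at 390, 339 and 387 CPM in the controls and at 70.9, 83.8 and 84.2 in the KOs (-2.26 ± 0.13, adjusted p = 6.32e-05). Anpep, aminopeptidase N, was at 457, 513 and 507 against 69.4, 97.0 and 75.3 (-2.66 ± 0.17, adjusted p = 8.78e-05). Mep1a, the alpha subunit of meprin, was at 433, 337 and 580 against 74.3, 80.6 and 89.7 (-2.48 ± 0.17, adjusted p = 0.000122). Control 3 did not stand apart in Ggt1 or Anpep, and the fall was as large without it, at -2.30 and -2.70. Napsa, a lysosomal aspartic protease, fell by 3.12. Dpep1, a dipeptidase, fell by 2.31 with control 3 and by 1.04 without it.

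Kap, the androgen-regulated kidney protein, and F13b, a clotting factor subunit, had 2 of the 4 largest falls. Kap was at 143, 137 and 445 CPM against 1.59, 2.45 and 6.05 (-6.16 ± 0.65, adjusted p = 0.000758; -5.50 without control 3). F13b was at 2.53, 1.38 and 15.7 against 0.222, 0.136 and 0.224 (-4.99 ± 0.96, adjusted p = 0.0108; -3.40 without control 3). The mean of controls 1 and 2 was 41.6 times the KO mean for Kap and 10.1 times for F13b. Xist, which is expressed from the inactive X of female cells, was at 993, 1828 and 1364 CPM in the controls and at 1864, 2390 and 2738 in the KOs, every KO above every control (0.69 ± 0.30, adjusted p = 0.171). The Y-linked genes listed were each at 1.03 CPM or less in all 6 libraries and highest in control 3. The part of these differences in the level of Kap was not tested.

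Other genes of the segment moved the same way. The lists used from here on were also chosen with earlier results of these data known. Of 44 further proximal tubule genes tested 36 fell and 0 rose, with a median log2 change of -1.82. Hao2, a peroxisomal oxidase, fell by 2.29. Of 14 transcription factors of the segment 8 fell and 0 rose. Esrrg, an estrogen-related receptor, was at 55.1, 49.1 and 70.1 CPM against 26.9, 26.5 and 21.1 (-1.25 ± 0.13, adjusted p = 0.000753). Hnf4a, named after its values were seen, was at 159, 101 and 271 against 46.6, 59.7 and 45.6 (-1.81 ± 0.27, adjusted p = 0.00353). Of 18 genes of fatty acid oxidation and the peroxisome 12 fell and 0 rose, among them Acadm, a medium-chain acyl-CoA dehydrogenase, by 1.55. Without control 3 the counts that fell were 36, 9 and 15 in these lists, and 1 further proximal tubule gene rose. In the fatty acid list too control 3 was high, the sums being 1806, 1436 and 3935 CPM in the controls and 1052, 1179 and 1053 in the KOs.

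Markers of other cells moved beside them. Of 12 thick limb and distal tubule genes 9 fell and 1 rose, with Umod, encoding uromodulin, at -4.50 ± 0.20 (adjusted p = 2.49e-05) and Slc12a1 at -3.02. Of 10 podocyte genes 7 fell and 0 rose. Endothelial genes, of a lineage without Cre, fell in 5 of 10 (10 of 10 without control 3), with summed levels between 1016 and 1412 CPM in controls and between 635 and 803 in KOs. Leukocyte genes rose in 3 of 10, with sums between 101 and 131 in controls and between 123 and 186 in KOs. Stromal genes rose in 3 of 11, with overlapping sums. Nephron progenitor genes were split, with 3 of 12 lower and 3 higher, and their sums lay between 875 and 955 CPM in controls and between 934 and 952 in KOs. Injury markers rose in 3 of 10 and fell in 1, with Vcam1 at 1.57 ± 0.16 (adjusted p = 0.000645) and Cryab, named after its values were seen, at -1.37 ± 0.15 (adjusted p = 0.001). Proliferation genes fell in 1 of 12, near the share of all genes tested, of which 8.23% fell and 6.36% rose. When control 3 was left out, 13.8% of all genes fell and 2512 of 18533 rose. In that fit 7 podocyte genes fell and 1 rose, 4 leukocyte genes rose, and 1 stromal gene fell and 4 rose. Nephron progenitor genes then had 4 lower and 5 higher, and proliferation genes 3 lower. The thick limb and injury counts did not change. The part of these cell populations in the fall of the 39 genes was not tested.

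**Figure D3:**
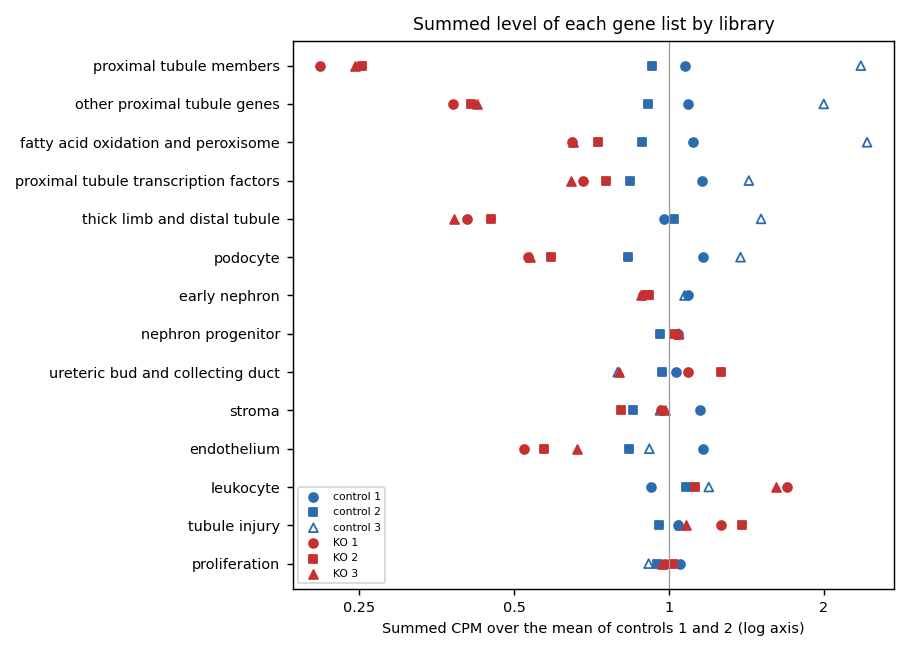
Summed CPM of each gene list in each library, divided by the mean of controls 1 and 2 (log axis), with controls in blue (control 3 open) and KOs in red. The 39 genes spread furthest, with control 3 at 2.36 and all KOs below both other controls, while the nephron progenitor and proliferation lists stay near 1.

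In control 3 the sums of other lists, over the mean of controls 1 and 2, ran from 0.41 for erythroid genes to 2.43 for fatty acid oxidation and the peroxisome, beside 2.36 for the 39 genes. Other proximal tubule genes summed to 7817 CPM in control 3 against 4259 and 3560 in controls 1 and 2. The ratio was 1.51 for thick limb and distal tubule, 1.38 for podocytes, 1.05 for nephron progenitors and 0.96 for stroma. Its erythroid sum was 442 CPM against 1260 and 906 in controls 1 and 2. The mitochondrially encoded sum was 43475, 124781 and 40624 CPM in controls 1, 2 and 3 and between 73366 and 110159 in the KOs. The part of these differences in the levels of the 39 genes was not tested.

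RRBS covered 354 CpG positions within the annotated bodies of 29 of the 39 genes, at 10 calls or more in all 9 libraries, and 27 genes had at least 3 such positions. Aqp1 had 1 and Napsa 2, and Slc5a8, Slc5a10, Slc5a12, Slc6a18, Slc6a19, Slc2a2, Kap, Keg1, F13b and Gsta2 had none. All 29 genes lie on autosomes. Per gene, calls were summed over positions and tested as methylated against unmethylated counts with the quasi-likelihood test of edgeR and Benjamini-Hochberg adjustment over all gene bodies. The percentages printed are means over positions, each weighing the same, per library, as mean ± SD (n = 3).

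In the KO, most of these gene bodies were less methylated, as were most gene bodies. Of the 27 genes 20 were lower and 0 higher, beside 57.7% of 18463 gene bodies lower and 0.379% higher. Every KO library was below every control in 21 of the 27, beside 69.3% of all, and above every control in 0, beside 0.747%. The median difference was -19.4 percentage points over the 27 genes and -12.4 over all gene bodies, and the median control level was 75.9% and 49.9%. Gene bodies at 50% or more in controls were lower in 18 of 21, beside 88.3% of all such gene bodies, with a median difference of -20.3 percentage points against -19.7. Slc5a1 was at 75.5%, 78.7% and 77.6% in controls 1, 2 and 3 and at 53.3%, 55.7% and 50.2% in the KOs over 19 positions (adjusted p = 1.19e-06 by edgeR). Slc13a3 was at 75.8%, 74.5% and 78.2% against 46.0%, 55.0% and 64.1% over 26 positions. Cubn was at 78.5%, 76.6% and 75.8% against 64.0%, 49.5% and 60.3% over 16 positions. In none of these genes did the groups overlap. The largest falls with the test passed were G6pc, from 91.7% ± 3.11 to 62.8% ± 14.1, and Slc7a9, from 89.9% ± 4.85 to 61.3% ± 1.74. The 7 genes that did not pass were Miox, Amn, Fbp1, Cyp27b1, Ggt1, Slc7a8 and Anpep. Slc7a8, with 35 positions, was at 23.7% ± 1.97 in controls and 19.1% ± 3.30 in KOs. Ggt1, named after its values were seen, had the largest KO value relative to control, 56.9% ± 15.7 in KOs against 39.4% ± 9.89 in controls, with overlapping libraries (adjusted p = 0.129 by edgeR). Without KO 1 it passed as higher, at 25.8 points above control (adjusted p = 0.0354 by edgeR). These values rest on 4 positions. At a minimum of 5 calls Ggt1 had 9 positions, and the KO mean was the lower one, 49.9% ± 2.35 against 55.2% ± 5.34 in controls. Among gene bodies at 50% or more in controls, the share with lower methylation was thus near the background.

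In the adult, 11 of the 27 gene bodies were lower than in P0 controls, beside 16.8% of 18450 tested, and 1 was higher, beside 6.21%. All 11 were at 50% or more in controls, where they made up 11 of 21 genes beside 12.5% of all such gene bodies, and 0 of the 21 was higher, beside 4.83%. The median difference was -6.36 percentage points over the 27 genes and -0.48 over all gene bodies. Adult means were over 10 points lower in 10 of the 27 genes, beside 5.85% of all gene bodies and 4.52% of those on autosomes. The shares over all gene bodies include the X and Y chromosomes. The part of sex and of the mix of cell types in the adult differences was not tested. Methylation of a bulk sample is a mean over its cells, so a different mix of cells and a change within cells cannot be told apart. Every adult was below every control in 13 of the 27, beside 21.8%, and above every control in 1, beside 14.1%. The 11 were Gatm, Pck1, Slc34a1, Lrp2, Miox, Slc3a1, Dpep1, Slc4a4, Slc13a3, Fbp1 and Slc5a2.

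Gatm (chr2:122594473-122611277, - strand) was at 94.5%, 89.3% and 86.1% in the controls and at 48.5%, 53.4% and 47.6% in the adults over 5 positions (adjusted p = 3.63e-06 by edgeR), with the KOs between, at 71.5%, 65.6% and 74.4%. Pck1 (chr2:173153073-173159274, + strand) was at 94.2%, 91.3% and 94.5% against 60.5%, 63.5% and 55.8% over 3 positions. Slc34a1 (chr13:55399622-55414695, + strand) was at 81.3%, 71.7% and 74.7% against 40.9%, 44.6% and 44.6% over 7 positions. Controls and adults did not overlap in these 3 genes. Miox (chr15:89334473-89337007, + strand) was at 77.1%, 86.6% and 81.2% against 61.4%, 44.3% and 42.5% over 5 positions (adjusted p = 0.00063 by edgeR), and its KOs, at 80.8%, 54.8% and 52.9%, overlapped the controls. Lrp2 (chr2:69424335-69586029, - strand) was at 81.3%, 83.1% and 85.5% against 65.0%, 70.0% and 67.5% over 31 positions. Slc3a1 (chr17:85028347-85064241, + strand) was at 76.7%, 75.9% and 71.7% against 57.4%, 47.7% and 50.4% over 14 positions. No adult overlapped a control in these genes either. RRBS control 3 was the highest control in Pck1 and Lrp2, the lowest in Gatm and Slc3a1 and between the others in Slc34a1 and Miox. The labels do not say whether it came from the same animal as RNA control 3.

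**Figure D4:**
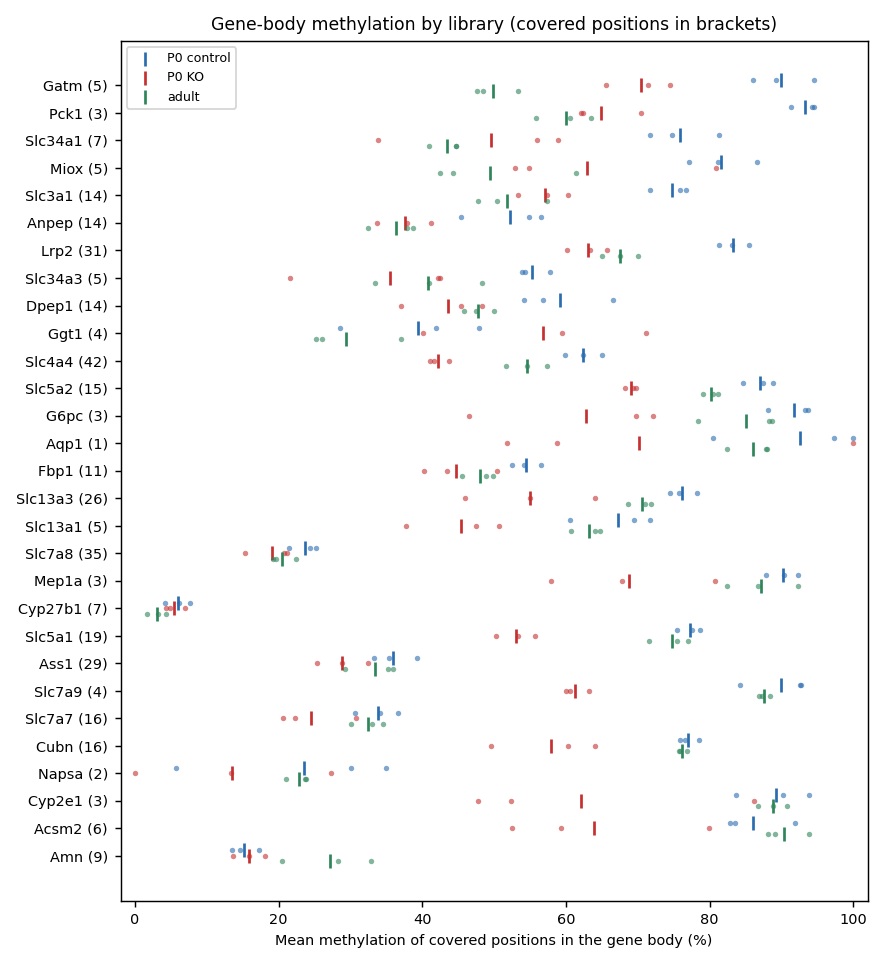
Mean methylation (%) of the covered positions in each gene body for P0 controls (blue), P0 KOs (red) and adults (green), with dots for the 3 libraries and bars for their mean, ordered by the adult minus control difference. Gatm, Pck1, Slc34a1 and Miox head the order, with adults between 40.9% and 63.5%, and Amn ends it with the adults above the controls.

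The other 5 genes lower in adults changed less. Slc4a4, with 42 positions, the most of the set, was at 62.4%, 59.8% and 65.1% in the controls, at 41.6%, 43.7% and 41.1% in the KOs and at 57.3%, 54.6% and 51.7% in the adults. Dpep1 went from 59.2% ± 6.49 to 47.7% ± 2.10. Slc5a2, Slc13a3 and Fbp1 were lower by 6.71, 5.60 and 6.36 points. Each of these calls was lost in several fits that left out 1 library. Cubn, whose RNA fell with Lrp2 and Amn in the KO, was at 77.0% ± 1.38 in controls and 76.2% ± 0.60 in adults, a difference of -0.82 points (adjusted p = 0.429 by edgeR). Slc5a1, G6pc and Slc7a9, all lower in the KO, differed from controls by -2.56, -6.57 and -2.36 points in the adult and did not pass. The KO and adult comparisons share their controls. Miox and Fbp1 did not pass in the KO (adjusted p = 0.0827 and 0.0759 by edgeR).

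Single positions showed where within the genes the difference lay. Of the 354 positions, 124 (35.0%) were lower in the adult mean by at least 10 points and 30 (8.47%) higher, beside 39649 lower and 39039 (10.8%) higher of all 360390 covered positions. In the KO mean 219 (61.9%) were lower and 11 (3.11%) higher, beside 53.0% and 1.90% of all. All covered positions of Gatm, Pck1, Slc34a1 and Miox were lower in adults by that size. The following stretches were chosen after their values were seen and were not tested. In Slc3a1 the 3 positions 140 to 177 bases from the start went from 96.7% ± 5.68 in controls to 60.2% ± 23.6 in KOs and 50.1% ± 3.86 in adults, while the last 4 positions were at 62.5% ± 10.9, 54.4% ± 16.8 and 60.9% ± 7.93. The upstream CpG at -127 was at 85.7%, 76.4% and 65.0% in controls, at 40.9%, 80.0% and 61.5% in KOs and at 6.67%, 37.5% and 22.6% in adults, from 10 to 55 calls a library. The last 4 positions of Slc3a1 went both ways, with adult means lower at position 85057799 (63.1% in controls, 36.2% in adults) and higher at 85059773 (57.1% and 74.5%).

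Within Lrp2 and Anpep, also chosen after their values were seen, the adult difference lay at some positions more than at others. At chr2 position 69546943, 39086 bases into the gene, methylation was 53.0% in controls, 28.6% in KOs and 8.73% in adults, and at position 69545213 it was 64.4%, 44.7% and 11.5%. In Anpep 6 positions between 6182 and 6396 bases from the start were at 88.6% ± 9.35 in controls, 71.0% ± 9.02 in KOs and 47.5% ± 2.92 in adults, whereas the 4 near its start had means of 1.53%, 1.48% and 3.59%. Over the whole Anpep body the adult mean over positions was 15.9 points lower with no overlap, and the test on summed calls, in which deeply read positions weigh more, did not pass (adjusted p = 0.737 by edgeR).

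Amn was the 1 gene higher in adults (13.6%, 14.7% and 17.3% in controls against 20.4%, 32.9% and 28.3%, adjusted p = 0.0202 by edgeR), and its 2 stretches differed in direction. The call was lost without control 1, control 2, adult 2 or adult 3, with limma on mean percents, and at 20 calls. The 5 positions 2800 to 2922 bases from the start were at 10.9% ± 3.90 in controls, 15.7% ± 4.54 in KOs and 45.1% ± 11.2 in adults, and were not tested apart. The 4 positions 277 to 316 bases from the start were at 20.6% ± 4.17 in controls, 16.1% ± 3.74 in KOs and 4.79% ± 0.27 in adults. The upstream CpGs printed above were at 47.0% (-204) and 59.2% (-196) in controls, 14.3% and 26.7% in KOs and 9.82% and 19.2% in adults, with control 3 at 84.6% for both from 13 calls. The controls were wide at -204, with control 1 at 40.0% and control 2 at 16.25% from 80 calls. Adult 3 was at 14.7% there and KO 1 at 31.4%. Adult methylation of Amn was thus lower around the start and higher inside.

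**Figure D5:**
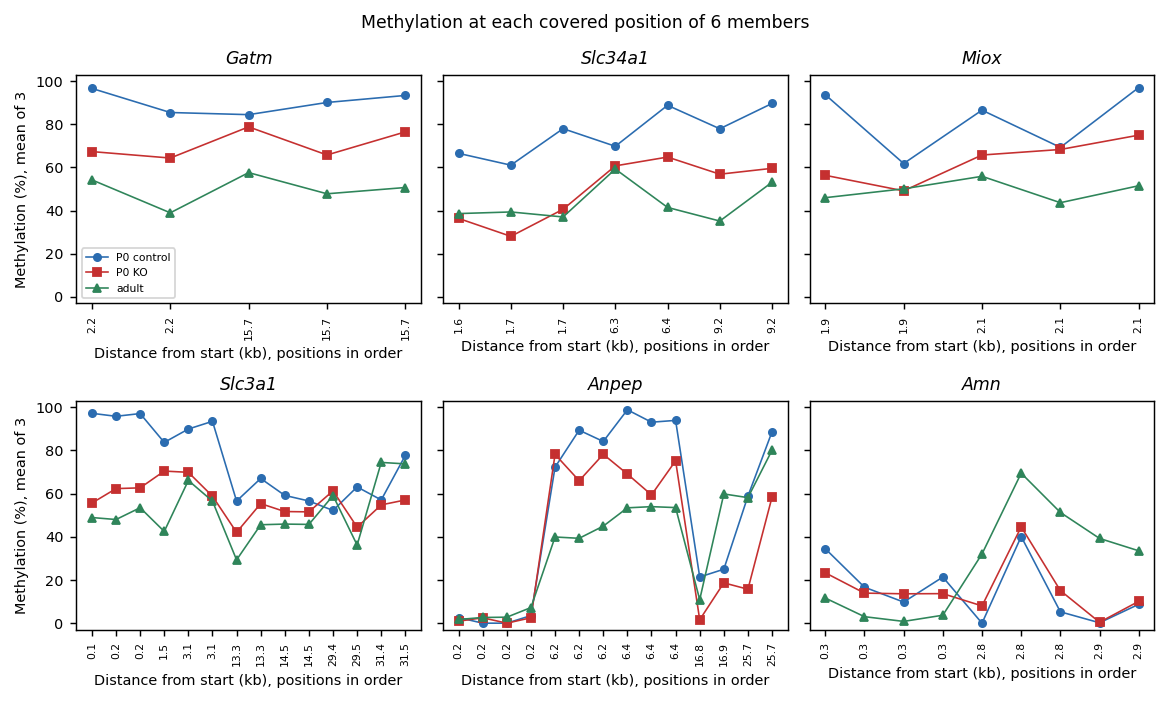
Methylation (%, mean of 3 libraries) at each covered position of Gatm, Slc34a1, Miox, Slc3a1, Anpep and Amn, in order from the start and evenly spaced, with the distance from the start in kb on the axis, for P0 controls (blue), P0 KOs (red) and adults (green). Adults are lowest along Gatm, at the start of Slc3a1 and in the middle of Anpep, and highest in the inner stretch of Amn.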

How the data were processed

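Raw read counts per gene were used as the authors deposited them (6 RNA libraries). Methylation percent values with methylated and unmethylated call counts per cytosine were used as deposited (9 RRBS libraries). Per the submitters' processing notes, the tools were Trim Galore, Bismark, STAR 2.4.1d and HTSeq 0.6.1, with the builds mm10 and GRCm38, and their roles and order are not given in the sources used here. Unassigned reads (between 22.9% and 35.8% of reads) were left out.

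The 39 genes and all gene lists were chosen with earlier results of these data known. Genes named with values in every library were, in each role, the 3 with the highest mean CPM and that with the smallest p; for methylation, up to 12 by smallest p and the 3 with the most positions; of other lists, the smallest p and the highest mean. Exceptions are marked.

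RNA counts were tested with edgeR 4.0.16 in R 4.3.3 (TMM, filterByExpr, glmQLFit and glmQLFTest, Benjamini-Hochberg over 18132 genes), 3 KO against 3 control. Standard errors come from the F statistic. Gene bodies are RefSeq spans of GRCm38.p6; positions needed 10 calls in all 9 libraries and bodies 3 positions, and each contrast used its 6 libraries. Median calls per position ranged from 4 to 18 over all positions of a library, before the minimum of 10 calls was applied. Single positions can rest on as few as 10 calls in a library, which limits them. SDs cover libraries and calls together. Both tests were tested on simulated data. Alternatives were other scalings, filters and tools (DESeq2 1.42.0, limma 3.58.1), a replicate block, other minimums of calls or positions, positions over 1 kb from the start, and each library left out. Strand was not available for Napsa, Slc5a2 and Slc13a1, so distances from a start are not given for them. Some results are not reported here.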

Additional observations from a re-analysis of the deposited data

How the results depend on the processing

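The 35 genes with lower RNA in the KO ranged from 21 to 38 when each library was left out in turn (21, 22 and 22 without KO 1, 2 and 3), and were 31 with library size alone, 31 with at least 10 counts in every sample, 33 with DESeq2 (which gave 4 no adjusted p), 37 with limma voom and 39 without a filter. All genes lower numbered between 701 and 2561 when libraries were left out (1493 with all), and 2595 with voom. None of the 39 genes rose under any of these settings. In methylation, the 20 genes lower in the KO became 12 of 16 at 20 calls and 10 of 13 at 10 positions per body. Fewer genes were tested there, and 61.5% and 62.6% of all gene bodies were lower. With a library left out the genes lower ranged from 18 to 21, beside 50.3% to 57.8% of all. Without KO 1, 1 gene (Ggt1) was higher in the KO, beside 0.352% of all. The 11 lower in adults became 7 of 13 at 10 positions per body, beside 22.6% of all gene bodies tested there. With limma 8 of 27 were lower, beside 7.25% of all. With a library left out they ranged from 9 to 10, beside 11.3% to 16.5% of all. The call of Slc5a2 was lost without control 1, control 3 or any 1 adult. That of Slc13a3 was lost without control 1, control 2, adult 2 or adult 3. That of Fbp1 was lost without control 1, control 2, adult 1 or adult 2. All gene bodies lower in adults went from 3093 to 1340 with limma, and to 1297 when differences under 5 points were not counted. The 1 gene higher in adults, Amn, became 0 at 20 calls, with limma, and without control 1, control 2, adult 2 or adult 3 (range 0 to 1). Amn has 9 positions, so it was not tested at 10 positions per body. Fbp1 did not differ in the test on positions over 1 kb from the start, at -2.87 points over positions (adjusted p = 0.996 by edgeR). The adult call of Fbp1 was thus lost there, and its test coefficient changed sign while its mean over positions stayed lower. Nearer the start its means in controls and adults were 56.9% and 34.6% at 843 bases and 83.7% and 39.2% at 828. At 684 bases they were 17.2% and 34.9%. The cause was not tested.

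The labels do not say that replicate numbers pair the samples. Same-numbered RNA deviations correlated at -0.28, -0.12 and -0.15. These deviations were taken from means of 3 libraries, so the values depend on each other and cannot decide whether samples were paired. With the replicate block 36 of the 39 genes were lower and 0 higher in RNA, beside 1005 and 798 of 18132 genes. In methylation 20 of 27 were lower in the KO, beside 57.8% of all. In adults 12 were lower and 1 higher, beside 17.3% and 6.37%.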

Other observations

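At a minimum of 5 calls in all 9 libraries, RRBS also covered Slc6a19, the apical neutral amino acid carrier, at 4 positions. Its gene body was at 96.7%, 91.1% and 96.9% in P0 controls, at 75.9%, 62.0% and 75.0% in KOs and at 51.9%, 53.2% and 52.9% in adults, from 35 to 163 calls a library. The same minimum brought in Slc5a10, a mannose and fructose carrier (29 positions, 12.8% in controls and 13.3% in adults), Slc2a2 (3 positions, 96.6% and 91.4%) and Kap (1 position, 93.0% and 80.4%). Adults were lower in 14 and higher in 1 of 31 genes tested at this minimum by edgeR, beside 18.1% and 5.25% of 22792 gene bodies. The adult means of Cubn and Napsa were 4.22 and 8.03 points above the controls. Slc34a1 had 16 positions at this minimum and was at 79.8% ± 7.20 in controls and 41.8% ± 3.51 in adults (SD, n = 3), and Pck1 had 9 and was at 84.0% ± 3.29 and 52.0% ± 1.67. Amn, with 39 positions, was at 7.30% ± 1.73 in controls, 6.10% ± 0.90 in KOs and 27.9% ± 4.33 in adults.

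Across the 27 gene bodies with at least 3 covered positions, the log2 excess of RNA control 3 over the other controls and the adult minus control difference in methylation had a Pearson r of -0.28 and a Spearman rho of -0.29. The RNA and methylation changes of the KO had r = 0.28 and rho = 0.24. The points are genes that share their libraries and are not independent, so these values are descriptions.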
